A study of Mus musculus with 6 samples.

Results

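The genes that copy DNA and commit a cell to S phase were followed across 6 mouse hearts, 3 from Nat10flox/flox mice (flox) and 3 from Nat10-CKO mice, which the labels describe as knocked out for Nat10 in cardiomyocytes only (CKO). All mice were 15 days old. The sources used here do not give the Cre line behind the deletion or the floxed exons. The members are 44 genes picked by symbol for their known role, and all 44 were found among the 54532 genes of the deposited table. Messenger RNA of the whole heart was sequenced, and the authors deposited FPKM, fragment counts scaled to gene length and library size. The library size in that scaling matched median-ratio size factors and not the total of counts. Levels below are FPKM, listed in the order of replicates 1, 2 and 3, and they can be compared between genes because they are per length. Changes are differences of log2(FPKM + 1) between groups, so they understate the change of weakly expressed genes. A gene was tested where its mean was at least 1 FPKM over the 6 hearts, and it was called where the limma p-value, adjusted by Benjamini-Hochberg over all 12469 genes tested, was under 0.05.

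DNA replication begins when the origin recognition complex, Cdc6 and Cdt1 load the ring of Mcm proteins onto an origin. Cdc45 and the GINS proteins turn that ring into a running helicase, primase and the polymerases copy the strands, and Pcna, a sliding clamp placed by the Rfc complex, holds the polymerases on the template. Entry into this program is set by D and E cyclins with their kinases and by E2F transcription factors. In mice, most heart muscle cells leave the cell cycle in the weeks after birth, whereas endothelial cells, fibroblasts and blood-derived cells of the heart can keep dividing.

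Each library held between 15048038 and 16280061 recovered counts, and no pair of libraries was identical. The labels call the hearts independent biological replicates. The marker genes of heart muscle were abundant, with the 12 of them summing to between 16059 and 27997 FPKM per heart. Nat10 stood at 3.87, 3.78 and 4.57 FPKM in flox against 3.69, 3.75 and 4.18 FPKM in CKO. The groups overlapped (log2 change −0.06 ± 0.12 SE, limma adjusted p = 0.768), so the RNA level of the targeted gene did not check the labels. All directions are therefore those of hearts labelled CKO. Across all genes tested 14.1% were called, 6.93% higher and 7.19% lower in the CKO-labelled hearts. Of the called genes, 49.1% were higher with the deposited scaling and 69.0% with TPM.

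Flox replicate 3, a control heart, stood apart in the replication genes. In all 44 members the highest flox value was that of replicate 3, and in 36 of the 44 (81.8%) this heart had the highest value of all 6. Among all genes tested, flox replicate 3 was the highest flox heart for 35.2% and the highest of all 6 for 11.7%. The median member was 2.72 times as high in flox replicate 3 as in the mean of flox replicates 1 and 2, against 0.988 times for all genes tested, and 31 of the 44 members were at least 2 times as high, against 2.70% of all genes tested. The members summed to 157, 158 and 314 FPKM in the flox hearts, with CKO sums of 225, 255 and 220 FPKM. The CKO-labelled hearts thus lay between the control hearts. For 27 of the 44 members (61.4%), all 3 CKO values lay above flox replicates 1 and 2 and below flox replicate 3, an order found for 2.21% of all genes tested. No label sets flox replicate 3 apart from the other control hearts.

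**Figure D1:**
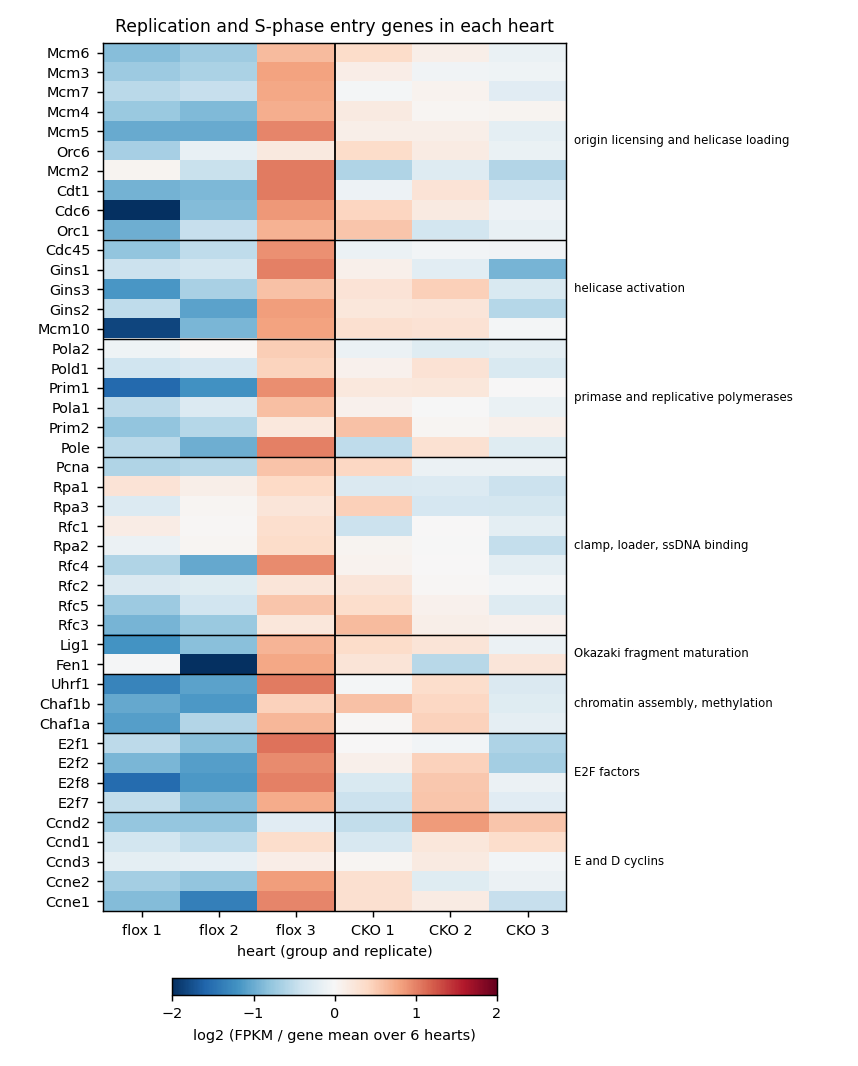
Level of each of the 44 members in each heart, as log2 of FPKM over the gene's mean of the 6 hearts, with genes in rows grouped by role and hearts in columns. Red is above and blue below the gene's mean, values under −2 are drawn at −2, and the column of flox replicate 3 is the highest of the 3 flox columns in all 44 rows.

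Of the 44 members, 38 passed the filter on low values and 6 did not. Between the genotypes, 1 of the 38 was called (2.63%, beside 14.1% of all genes tested), and 0 were called higher. The called member was Rpa1, which was lower in the CKO-labelled hearts. Rpa1 and Ccnd2 were the 2 with an unadjusted limma p under 0.05, beside 4001 of all 12469 genes tested. The median log2 change of the 38 was 0.13, with 28 above 0 and 10 below, beside a median of 0.00 for all genes tested. The CKO and flox values did not overlap in 3 members, all with lower CKO values, namely Rpa1, Rfc1 and Pola2. Among all genes tested the groups did not overlap for 19.9% with lower and 19.7% with higher CKO values. Intervals of the changes were wide. That of Uhrf1, for example, ran from −0.77 to 1.40 on the log2 scale, so that a difference of more than 2-fold in FPKM + 1 was not outside it.

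**Figure D2:**
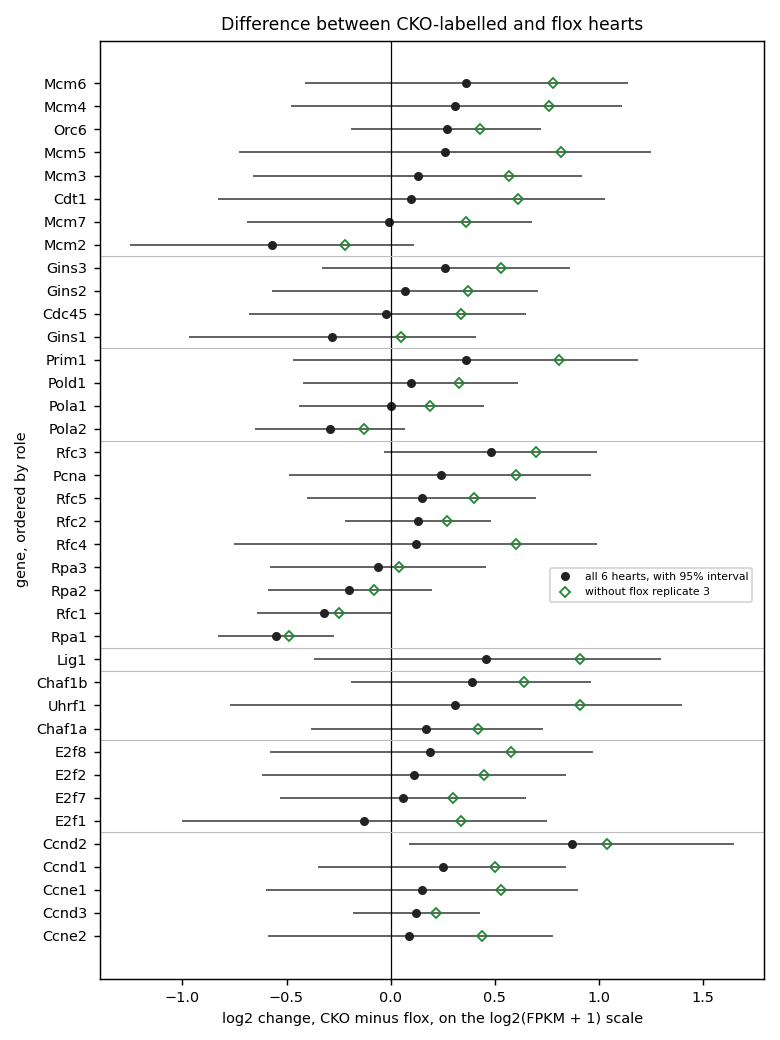
Log2 change between CKO-labelled and flox hearts for the 38 members tested, with genes grouped by role. Filled circles with lines are the changes and 95% intervals from all 6 hearts, and open diamonds are the changes without flox replicate 3. The interval of Rpa1 lies wholly below 0 and that of Ccnd2 wholly above it, and every diamond lies to the right of its circle.

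The 10 licensing genes summed to 29.3, 30.2 and 81.0 FPKM in flox and to 51.2, 49.0 and 41.9 FPKM in CKO, and none of the 8 tested was called. Among them are the subunits of the Mcm2-7 helicase ring, of which Mcm5 (ENSMUSG00000005410, chromosome 8, 75109569 to 75128439, GRCm38) shows the common pattern. Flox hearts had 2.90, 2.91 and 11.5 FPKM, against 6.30, 6.34 and 5.08 FPKM in CKO. The control values enclosed the CKO values (log2 change 0.26 ± 0.42, SE, limma adjusted p = 0.709). Mcm6 was at 4.21, 4.65 and 11.8 FPKM in the flox hearts and at 9.86, 8.23 and 6.99 FPKM in the CKO-labelled hearts. Mcm3 (4.36, 4.69 and 12.7 FPKM in flox) and Mcm4 (3.94, 3.59 and 11 FPKM in flox) repeated this order, with CKO values of 6.85 to 7.97 FPKM for Mcm3 and of 6.83 to 7.48 FPKM for Mcm4. Mcm7 was also highest in flox replicate 3, at 11.4 FPKM, with CKO values of 5.68 to 7.05 FPKM.

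Mcm2 was the exception in the ring. It stood at 4.37, 3.07 and 8.62 FPKM in the flox hearts and at 2.77, 3.51 and 2.78 FPKM in the CKO-labelled hearts. CKO replicates 1 and 3 were below every flox value and CKO replicate 2 was within the flox range, and the gene was not called (log2 change −0.57 ± 0.29, limma adjusted p = 0.223). Cdt1, which brings the ring to the origin, was at 1.80, 1.86 and 7.11 FPKM in flox and at 3.22, 4.19 and 2.66 FPKM in CKO. Orc6, a subunit of the origin recognition complex, varied less, from 2.78 to 5.04 FPKM in flox and from 3.99 to 5.67 FPKM in CKO. Cdc6, the loading ATPase, and Orc1, the largest origin recognition subunit, did not pass the filter. Cdc6 was at 0.150, 0.377 and 1.25 FPKM in flox (11 recovered counts in replicate 1 and 109 in replicate 3) and between 0.640 and 0.926 FPKM in CKO, and Orc1 did not exceed 0.585 FPKM in any heart.

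The promoters of these genes were examined because the members moved together across hearts and E2F factors are known to bind genes of this class. Promoter windows of RefSeq on GRCm38.p6, from 250 bases before to 50 bases after a gene's start, were at hand for 35 members and not for Mcm4, Gins1, Gins2, Prim2, Pole, Rfc2, Ccne2, Ccnd1 and Ccnd2. They were searched on both strands for the E2F core sequences TTTCCCGC and TTTGGCGC and for CCAAT, which can share a base with the end of the second core. An E2F core was present for 12 of the 35 members (34.3%) and for 404 of 17491 protein-coding genes (2.31%). By role, it was present for 6 of 9 licensing genes, 2 of 4 polymerase genes, 2 of 4 E2F genes, 1 of 3 helicase activation genes and 1 of 8 clamp, loader and single-strand binding genes. It was present for 0 of 2 genes of Okazaki fragment maturation, 0 of 3 of chromatin assembly and 0 of 2 cyclins. CCAAT was present for 24 of the 35 members (68.6%) and for 42.3% of protein-coding genes. The starts are those of RefSeq, and some windows, such as those of Cdc6 and E2f1, lay inside the deposited bounds of the gene. A match is a match of letters and does not show that a factor binds there. Only exact matches to the sequences given were counted, and other forms of an E2F site were not searched.

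Shown are the 250 bases before the start of 3 licensing genes that hold a core and of Rpa1, the called member, which holds none in its window. Each is written 5′ to 3′ along the gene, from GRCm38.p6, with the E2F cores in capitals, on either strand.
Mcm5, chr8:75109259-75109508, plus strand: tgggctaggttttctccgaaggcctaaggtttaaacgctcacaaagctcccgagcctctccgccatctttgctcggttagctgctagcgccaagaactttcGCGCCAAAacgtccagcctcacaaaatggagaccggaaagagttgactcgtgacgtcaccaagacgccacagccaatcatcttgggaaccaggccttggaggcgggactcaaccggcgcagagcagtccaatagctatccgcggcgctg
Mcm6, chr1:128359706-128359955, minus strand: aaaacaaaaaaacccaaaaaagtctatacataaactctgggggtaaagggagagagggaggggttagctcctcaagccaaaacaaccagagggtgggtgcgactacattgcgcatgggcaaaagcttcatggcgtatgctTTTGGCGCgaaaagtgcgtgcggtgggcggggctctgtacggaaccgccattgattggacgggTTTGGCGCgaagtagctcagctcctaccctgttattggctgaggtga
Cdc6, chr11:98907901-98908150, plus strand: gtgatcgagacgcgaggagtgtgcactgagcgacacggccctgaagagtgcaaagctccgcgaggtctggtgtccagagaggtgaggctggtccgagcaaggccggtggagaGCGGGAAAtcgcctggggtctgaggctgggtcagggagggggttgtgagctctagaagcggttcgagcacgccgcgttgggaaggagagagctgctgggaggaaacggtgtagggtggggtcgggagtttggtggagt
Rpa1, chr11:75348384-75348633, minus strand: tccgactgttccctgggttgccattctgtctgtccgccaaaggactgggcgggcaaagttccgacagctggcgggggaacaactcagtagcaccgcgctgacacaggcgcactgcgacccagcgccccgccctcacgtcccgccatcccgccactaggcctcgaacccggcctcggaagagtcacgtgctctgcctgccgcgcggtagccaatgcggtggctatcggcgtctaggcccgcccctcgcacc
The capitals read GCGCCAAA in Mcm5, which is TTTGGCGC on the other strand, and GCGGGAAA in Cdc6, which is TTTCCCGC on the other strand. Mcm6 holds TTTGGCGC at 2 places. Members with neither searched core sequence in their windows could be as high in flox replicate 3 as members with one. Other forms of an E2F site in these windows were not searched, so a link to E2F sites was not tested. Cdc6 and Mcm5 were in flox replicate 3 at 4.73 and 3.95 times the mean of the other flox hearts. E2f8, Prim1 and Uhrf1, with neither searched sequence, were at 5.07, 4.93 and 4.67 times that mean. These genes were picked as the highest with and without a core. The lowest were Pold1 with a core, at 1.76 times, and Rpa1 without one, at 1.14 times.

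All 5 genes that activate the helicase were highest of all 6 hearts in flox replicate 3, and for 3 of the 5 the CKO values lay between the flox values. Cdc45 was at 1.1, 1.37 and 3.67 FPKM in the flox hearts and at 1.79, 1.86 and 1.84 FPKM in the CKO-labelled hearts. The SD of the CKO values was 0.0341 FPKM, while the flox SD was 1.41 FPKM. The GINS subunits Gins1, Gins2 and Gins3 were 2.65, 3.02 and 2.77 times as high in flox replicate 3 as in the mean of the other flox hearts. For Gins1 the CKO values of 2.05, 1.65 and 1.0 FPKM reached below the lowest flox value of 1.41 FPKM. For Gins2, CKO replicate 3 was at 0.817 FPKM and flox replicate 1 at 0.855 FPKM. Mcm10, which assists helicase activation, did not pass the filter, at 0.149, 0.282 and 0.934 FPKM in flox and 0.517 to 0.661 FPKM in CKO. None of the 4 members tested in this role was called, and their log2 changes ran from −0.28 to 0.26.

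Among the polymerase genes, the catalytic primase subunit Prim1 was at 0.591, 0.747 and 3.30 FPKM in the flox hearts and at 2.01, 2.03 and 1.75 FPKM in the CKO-labelled hearts. The 3 CKO values were close together and lay between the flox values. Pola2, the accessory subunit of polymerase alpha, went the other way, with 6.5, 7.07 and 9.73 FPKM in flox and 6.41, 5.83 and 6.03 FPKM in CKO. The groups did not overlap, although 6.41 and 6.5 FPKM are close, and Pola2 was not called (log2 change −0.29 ± 0.15, limma adjusted p = 0.237). Pold1, the catalytic subunit of polymerase delta, was at 4.15, 4.31 and 7.43 FPKM in flox and 4.43 to 6.65 FPKM in CKO. Pola1, the catalytic subunit of polymerase alpha, had means of 1.2 ± 0.523 FPKM in flox and 1.17 ± 0.0869 FPKM in CKO (SD, n = 3). Prim2, the large primase subunit, and Pole, the catalytic subunit of polymerase epsilon, did not pass the filter. Pole was at 1.84 FPKM in flox replicate 3 and at 0.465 to 1.13 FPKM in the other hearts, and Prim2 was highest in CKO replicate 1, at 1.40 FPKM.

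Rpa1 (ENSMUSG00000000751, chromosome 11, 75298166 to 75348324), the large subunit of the complex that coats single-stranded DNA, was the member that fell. It was at 14.7, 13.2 and 15.9 FPKM in the flox hearts and at 9.93, 10.0 and 9.03 FPKM in the CKO-labelled hearts. Every CKO value was below every flox value, and the CKO mean was 0.660 times the flox mean (log2 change −0.55 ± 0.12, SE, limma adjusted p = 0.0257). The call was lost without flox replicate 1, 2 or 3 or CKO replicate 3, with adjusted p of 0.112, 0.0665, 0.0624 and 0.0783. It was also lost with TPM (−0.44, adjusted p = 0.0699), with scaling by total counts (−0.42, adjusted p = 0.0748) and without a filter (adjusted p = 0.0522). Its partners in the complex were not called. Rpa2 was at 4.97, 5.53 and 7.0 FPKM in flox and 5.63, 5.39 and 3.88 FPKM in CKO, and Rpa3 was at 5.73 to 8.17 FPKM in flox and at 9.58, 5.46 and 5.39 FPKM in CKO. The difference between Rpa1 and its partners was not tested.

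Pcna was the most abundant replication factor outside the cyclins. It was at 14.7, 15.2 and 33 FPKM in the flox hearts and at 29.5, 20.5 and 20.6 FPKM in the CKO-labelled hearts. All CKO values lay between the lower flox values and flox replicate 3 (log2 change 0.24 ± 0.31, limma adjusted p = 0.638). Pcna has processed pseudogenes in the table, the higher of them at a mean of 0.458 FPKM, so its reads may be shared. In the clamp loader, the large subunit Rfc1 was lower without overlap, at 6.69, 6.08 and 7.55 FPKM in flox and 4.46, 6.03 and 5.27 FPKM in CKO, and was not called (−0.32 ± 0.14, limma adjusted p = 0.159). The small subunits had positive log2 changes, Rfc2 0.13, Rfc3 0.48, Rfc4 0.12 and Rfc5 0.15, none of them called. Rfc3 was at 1.05, 1.2 and 2.34 FPKM in flox and at 3.11, 2.17 and 2.13 FPKM in CKO, and Rfc4 was at 3.03, 2.27 and 8.86 FPKM in flox and at 4.84, 4.64 and 4.04 FPKM in CKO.

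Lig1, the ligase that joins Okazaki fragments, was at 2.04, 2.60 and 7.45 FPKM in flox and at 6.0, 5.55 and 4.31 FPKM in CKO. Its CKO values lay above flox replicates 1 and 2 and below replicate 3. Fen1, the flap endonuclease that trims those fragments, did not pass the filter, with 0.325, 0.0814 and 0.569 FPKM in flox and 0.395, 0.226 and 0.391 FPKM in CKO. In GENCODE M21, 78.8% of the exon bases of Fen1 overlap Gm10143 on the opposite strand, and overlaps of this kind cover 67.3% of Gins2 (with Gse1) and 52.5% of Chaf1a (with Ubxn6). The sources used here do not say whether counting used strand, so the levels of these 3 genes are uncertain.

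Of the genes that restore chromatin behind the fork, Uhrf1, which reads hemimethylated DNA and recruits the maintenance methyltransferase, had the largest spread. It was at 1.91, 2.27 and 9.77 FPKM in flox and at 4.65, 6.07 and 3.92 FPKM in CKO. The flox SD of 4.44 FPKM was nearly as large as the flox mean of 4.65 FPKM. The histone chaperone subunits Chaf1a and Chaf1b had means of 0.939 ± 0.618 and 0.913 ± 0.617 FPKM in flox and of 1.13 ± 0.268 and 1.44 ± 0.398 FPKM in CKO (SD, n = 3). Neither was called, with log2 changes of 0.17 and 0.39.

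The 4 E2F members all had their highest values in flox replicate 3. Other E2F genes, counted under G1/S control, were not all highest there. E2f1, an activator of S-phase genes, was at 2.45, 1.98 and 7.44 FPKM in flox and at 3.56, 3.41 and 2.30 FPKM in CKO. E2f2, another activator, was at 0.630, 0.552 and 2.28 FPKM in flox and at 0.738 to 1.62 FPKM in CKO. The repressors E2f7 and E2f8, themselves made in S phase, were at 1.78 and 2.22 FPKM in flox replicate 3, and 2.66 and 5.07 times as high there as in the mean of the other flox hearts. These activators and repressors were thus high in the same heart, and their log2 changes between the genotypes ran from −0.13 to 0.19, with none called.

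The E cyclins were raised more in flox replicate 3 than the D cyclins. Ccne1 and Ccne2, the E cyclins that act with Cdk2 at S-phase entry, were highest in flox replicate 3, at 2.5 and 3.63 FPKM, which was 4.19 and 2.96 times the mean of the other flox hearts. Their CKO values were 0.926 to 1.59 FPKM and 1.72 to 2.53 FPKM, and their log2 changes were 0.15 and 0.09. The D cyclins, which answer to growth signals earlier in G1, were more abundant and not highest in that heart. Ccnd2 (chromosome 6, 127125162 to 127152193), with the highest mean of the 44 members, was at 20.0, 20.1 and 29.1 FPKM in the flox hearts and at 24.2, 61.5 and 50.4 FPKM in the CKO-labelled hearts. CKO replicates 2 and 3 stood above every flox heart while CKO replicate 1 fell within the flox range. Its mean was 1.97 times as high in CKO as in flox, and it was not called (log2 change 0.87 ± 0.33, SE, limma adjusted p = 0.123). Without CKO replicate 1 it was called (1.26, adjusted p = 0.0180), the 1 member called higher in that fit, in which 5.61% of all genes were called higher. Ccnd1 was at 13.9, 12.6 and 22.9 FPKM in flox and at 14.3, 21.0 and 23.0 FPKM in CKO, also with CKO replicate 1 the lowest of its group, and Ccnd3 ranged from 9.23 to 12 FPKM over the 6 hearts. Exons of Ccnd1 overlap those of a gene on the opposite strand over 23.4% of their bases.

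**Figure D3:**
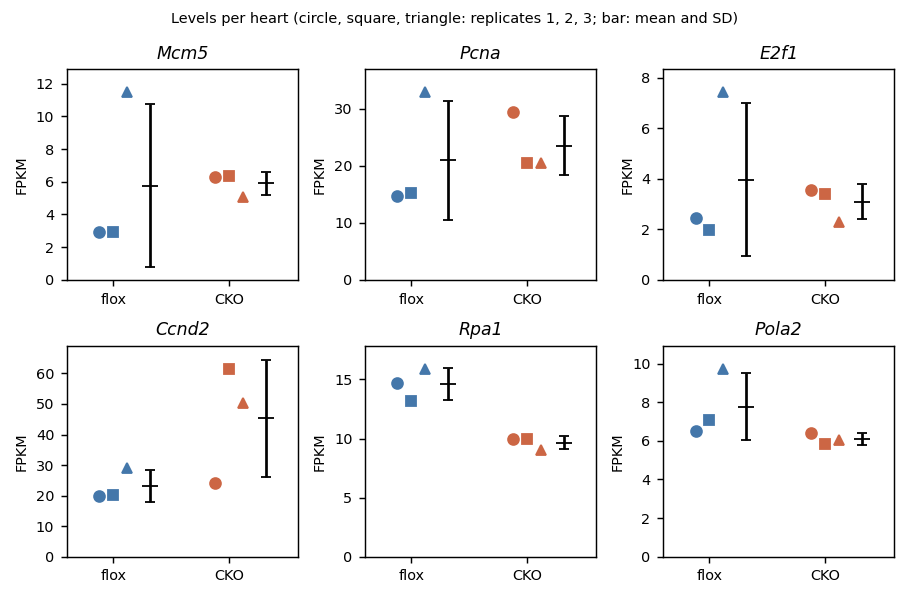
FPKM per heart for 6 members, with flox in blue, CKO in orange, and a bar for the mean and SD of 3 hearts. In Mcm5, Pcna and E2f1 the triangle of flox replicate 3 is the highest point. In Ccnd2 the circle of CKO replicate 1 (24.2 FPKM) lies within the flox range, and in Rpa1 and Pola2 the groups do not overlap.

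Because a single control heart carried so much of the spread, the comparison was repeated without each heart in turn. Without flox replicate 3, 7 of the 38 members tested (18.4%) were called higher and 0 lower, in a fit that called 5.51% of all genes higher. These were Mcm3 (log2 change 0.57 ± 0.14), Mcm4 (0.76 ± 0.13), Mcm5 (0.82 ± 0.14), Mcm6 (0.78 ± 0.17), Prim1 (0.81 ± 0.15), Lig1 (0.91 ± 0.17) and Uhrf1 (0.91 ± 0.19), with limma adjusted p from 0.0193 to 0.0423 and n = 2 flox against 3 CKO hearts. Rpa1 was then at −0.49 ± 0.14 and not called. The median change of the 38 was 0.44 without flox replicate 3, and −0.03 without flox replicate 1 and also without flox replicate 2. The sign of the median thus turned with the control heart left out, and with all 6 hearts none of the 7 was called, their adjusted p running from 0.407 to 0.813. Flox replicate 3 was the highest flox heart for all 38, so leaving it out raises each change whatever the effect of genotype. The share called without it, beside 5.51% of all genes, is therefore not a test of genotype.

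Few other genes of the pathway, taken from lists by function, were called. Across all 12469 genes tested, 14.1% were called and 4001 had an unadjusted limma p under 0.05. Limma called 0 of 24 other replication factors tested (3 had an unadjusted p under 0.05), and the most abundant, the polymerase delta subunit Pold2, was at 13.0, 12.5 and 15.4 FPKM in flox and 20.6, 15.4 and 14.1 FPKM in CKO. Of 10 genes of deoxynucleotide supply, 0 were called (2 unadjusted), with the thymidylate kinase Dtymk at 8.01, 8.01 and 11.2 FPKM in flox and 15.3, 10.0 and 12.1 FPKM in CKO. Of 16 genes of G1/S control, 0 were called (5 unadjusted), with Cdk4, the kinase partner of the D cyclins, at 17.1, 20.3 and 26.0 FPKM in flox and 34.9, 25.6 and 24.4 FPKM in CKO. These 3 genes had log2 changes of 0.26, 0.41 and 0.41, each with an interval that included 0. The lists' medians were 0.14, 0.04 and 0.15. Their log2 changes ran from −1.12 to 0.37, from −0.47 to 0.72 and from −0.74 to 0.59, so the most abundant genes do not stand for their lists.

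Mitosis genes were also high in flox replicate 3. All 20 were highest in that heart, at a median of 5.65 times the mean of flox replicates 1 and 2. Mki67, a marker of cycling cells, was at 2.60, 2.24 and 13.1 FPKM in flox and at 4.41, 9.86 and 5.6 FPKM in CKO, and Cdc20, an activator of the anaphase-promoting complex, was at 3.94, 4.29 and 22.4 FPKM in flox and at 9.86, 13.8 and 5.51 FPKM in CKO. The 20 genes summed to 37.2, 38.6 and 184 FPKM in the flox hearts and to 91.4, 124 and 58.8 FPKM in the CKO-labelled hearts. Limma called 0 of the 19 tested (0 had an unadjusted p under 0.05), beside 14.1% of all genes tested. Without flox replicate 3, 8 of the 19 (42.1%) were called higher, beside 5.51% of all genes tested. That heart was the highest for every one of these genes, so leaving it out raises each change, and this share is not a test of genotype.

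**Figure D4:**
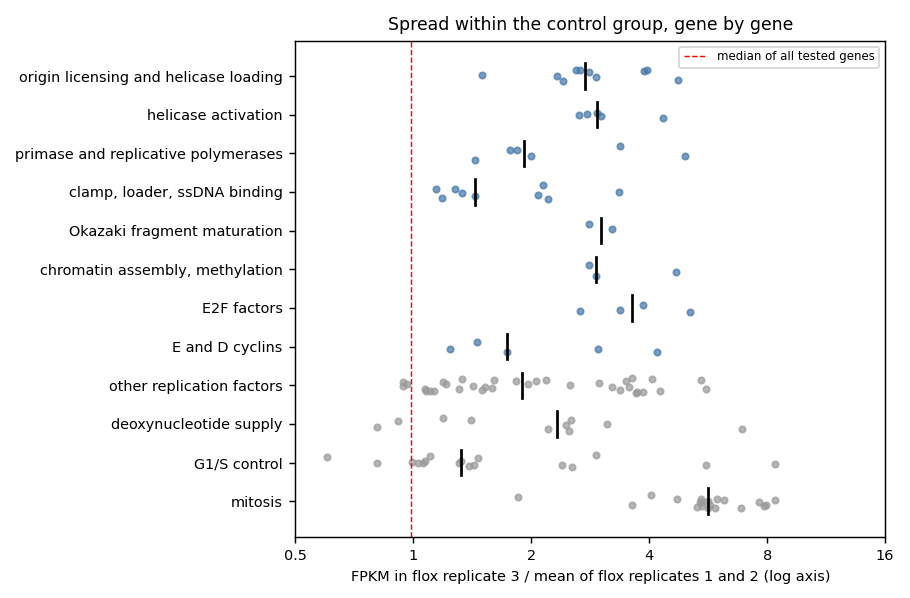
Ratio of the FPKM in flox replicate 3 to the mean of flox replicates 1 and 2, on a log axis, for each gene of the 8 member roles (blue) and 4 neighbouring lists (grey), with a black bar at each list's median. The medians run from 1.44 for the clamp, loader and single-strand binding genes to 3.61 for the E2F genes among the members and reach 5.65 for mitosis, against 0.988 for all genes tested (dashed line).

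Among the inhibitors of the cyclin-dependent kinases, 4 of 7 were highest of the flox hearts in replicate 3, and 2 were called between the genotypes. Cdkn1a, a p53 target whose protein binds Cdk2 complexes and Pcna, was at 9.94, 12.5 and 17.4 FPKM in flox and at 228, 154 and 215 FPKM in CKO (log2 change 3.82 ± 0.23, limma adjusted p = 0.00129). Cdkn1c, an imprinted inhibitor of the same family, was at 14.4, 14.0 and 10.5 FPKM in flox and at 7.57, 6.54 and 6.66 FPKM in CKO (−0.81 ± 0.15, limma adjusted p = 0.0158). The flox and CKO values of both genes were apart, and flox replicate 3 had the highest Cdkn1a and the lowest Cdkn1c of the control hearts. Of the 5 inhibitor genes tested, these 2 were called, beside 14.1% of all genes tested. Cdkn2c, an inhibitor of Cdk4 and Cdk6, was at 8.01, 7.12 and 17.0 FPKM in flox and at 11.8, 14.0 and 6.54 FPKM in CKO, and was highest of all 6 hearts in flox replicate 3, as was Cdkn2d of the same family. Cdkn2c and Cdkn2d were chosen after seeing their values. The call of Cdkn1a was kept without each heart in turn (adjusted p of at most 0.0123), and that of Cdkn1c was not (adjusted p up to 0.0758).

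Marker genes of cell types were summed per heart beside these results, and none of the markers was at 0 in all 6 hearts. The 12 heart muscle markers summed to 27997, 27084 and 22006 FPKM in the flox hearts and to between 16059 and 17566 FPKM in CKO, with 6 of 12 called lower. The 12 endothelial markers summed to 720, 694 and 776 FPKM in flox and 602 to 720 FPKM in CKO, and the 10 erythroid markers to 478, 653 and 823 FPKM in flox and 812, 402 and 448 FPKM in CKO, with 0 called in either list. Fibroblast markers summed to 893, 1083 and 803 FPKM in flox and 1121 to 1501 FPKM in CKO (4 of 12 called higher), macrophage and monocyte markers to 140, 119 and 138 FPKM in flox and 150 to 265 FPKM in CKO (1 of 11 tested called higher), and smooth muscle and pericyte markers to 761, 704 and 604 FPKM in flox and 467 to 536 FPKM in CKO (2 of 10 tested called lower). Among all genes tested, 6.93% were called higher and 7.19% lower. The marker calls depended on single hearts. The 6 muscle calls became 0 without flox replicate 1, without flox replicate 2 and without a filter, and 2 without CKO replicate 3. The 4 fibroblast calls became 0 without flox replicate 1, 2 without flox replicate 2, 2 without CKO replicate 3 and 1 without a filter. The macrophage call was lost without flox replicate 1 or 2, CKO replicate 1 or a filter, and the 2 smooth muscle calls became 0 without flox replicate 1 or 2, CKO replicate 3 or a filter. Of the control hearts, flox replicate 3 had the lowest heart muscle, fibroblast, and smooth muscle and pericyte sums, and the highest endothelial and erythroid sums. It was the highest flox heart for 6 of 12 endothelial and 8 of 10 erythroid markers. The part of these differences in the replication genes was not tested. In whole hearts, a difference in the number of cycling cells and a difference in RNA per cycling cell cannot be told apart.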

How the data were processed

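Per the labels' protocols, poly(A) RNA of whole hearts was sequenced as paired ends. Per the series' design text and the submitters' processing notes, reads were aligned to GRCm38 with HISAT2 2.0.5 and counted with featureCounts 1.5.0-p3. The authors deposited FPKM per heart and a gene length. FPKM multiplied by length gave whole multiples of 1 step per library for 100% of the low values assessed (tolerance 0.01). The counts recovered this way give the depth, and the step matched median-ratio size factors of 0.893 to 1.07.

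Values were tested as log2(FPKM + 1) with limma 3.58.1 in R 4.3.3 (genotype as the only term, mean-variance trend, two-sided, Benjamini-Hochberg over all 12469 genes with a mean of at least 1 FPKM). No column of another sample was present. Exon overlaps come from GENCODE M21 and promoters from RefSeq tables of the same build. The fit was checked on simulated data with noise drawn separately for each gene and heart. That check does not cover a heart in which many genes move together.

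The 44 members, the pathway lists, the marker lists and the motifs were chosen with earlier results of these data known. The text names all members, Nat10, Cdkn1a, Mki67, and of each pathway list up to 4 called genes or, where none was called, the most abundant. Other pathway genes whose results are given, such as Cdkn2c, were chosen after their values were seen. Alternatives were pseudocounts, filters, scalings, moderation, array weights, the replicate block, voom on recovered counts and each heart left out. Scaling by total counts was added after the data were seen.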

Additional observations from a re-analysis of the deposited data

How the results depend on the processing

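The change of 38 members rests on 3 hearts a group, and on flox replicate 3 in particular. Weakly expressed members are limited by depth, with 9 recovered counts of Orc1 in flox replicate 1. Called genes numbered 1761 in all, 641 without a filter, 2784 with array weights and 541 with the replicate block, and 364 to 1794 with 1 heart left out (fewest without flox replicates 1 and 2, 364 and 478, and 755 without CKO replicate 3). The 1 called member became 0 without a filter, with TPM, with scaling by total counts and with the replicate block, and 2 with array weights, where 1 was higher (Ccnd2, 1.21, adjusted p = 0.00937). With 1 heart left out, 0 to 7 members were called, 0 to 7 higher and 0 to 1 lower. Same-numbered hearts did not deviate together (correlations of −0.283, −0.137 and −0.192), so the numbers were not taken as pairs. Under the block 0 members and 0 muscle, fibroblast, macrophage or smooth muscle markers were called. The 2 called genes of the other pathway lists became 8 with array weights, 4 with voom and 1 with the replicate block, and 1 to 13 with 1 heart left out. The median change of the members, 0.13, ran from −0.03 to 0.44 with 1 heart left out and from 0.12 to 0.28 elsewhere.

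TPM and scaling by total counts moved the median of all genes by 0.13 and 0.11 (log2), and the members' medians were then 0.28 and 0.23. In the fits of all 6 hearts, signs turned for 4 members and for Nat10. Mcm7 went to 0.01 with a pseudocount of 0.1 (with either filter), 0.13 with TPM, 0.14 with array weights and 0.11 with total counts, and Cdc45 to 0.03, 0.12, 0.15 and 0.06 in these fits and to 0.00 with voom. Pola1 was −0.02 with quantile normalization, Rpa3 0.06 with TPM and with total counts, and Nat10 0.06 with TPM, 0.00 with array weights and 0.05 with total counts. With 1 heart left out, the ranges of members whose sign turned were −0.16 to 0.61 for Cdt1, −0.11 to 0.57 for Mcm3, −0.02 to 0.82 for Mcm5, −0.21 to 0.36 for Mcm7, −0.23 to 0.34 for Cdc45, −0.45 to 0.05 for Gins1, −0.14 to 0.37 for Gins2, −0.12 to 0.19 for Pola1, −0.03 to 0.33 for Pold1, −0.20 to 0.60 for Rfc4, −0.03 to 0.40 for Rfc5, −0.30 to 0.06 for Rpa3, −0.03 to 0.91 for Uhrf1, −0.41 to 0.34 for E2f1, −0.09 to 0.45 for E2f2, −0.10 to 0.30 for E2f7, −0.03 to 0.58 for E2f8, −0.09 to 0.53 for Ccne1 and −0.10 to 0.44 for Ccne2, and −0.10 to 0.01 for Nat10. The causes were not tested. Other members kept the sign of their change in every fit.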

Other observations

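Without flox replicate 3, the 8 mitosis genes called higher were Top2a, Tpx2, Kif11, Cdk1, Aurkb, Anln, Bub1 and Ube2c, with log2 changes from 0.85 ± 0.21 for Bub1 to 1.41 ± 0.26 for Tpx2 (SE, limma adjusted p from 0.0223 to 0.0494). Outside that list, Cks2, a subunit of cyclin-dependent kinases (1.48 ± 0.36), and Tyms, which makes thymidylate (0.95 ± 0.20), were called higher, and Tfdp2, a dimer partner of E2F factors, was called lower (−0.95 ± 0.21). These 11 genes were chosen after their values were seen, and none was called with all 6 hearts in the unweighted limma fit of log2(FPKM + 1) over genes with a mean of at least 1 FPKM. Other fits of all 6 hearts called genes of these lists, among them 1 of deoxynucleotide supply higher with voom and with array weights, and 4 of G1/S control lower with array weights.

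Neither of the E2F core sequences searched was found in the promoter windows of 18 mitosis genes. CCAAT was present in 16 of them (88.9%), beside 42.3% of all protein-coding genes.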
